A study of Mus musculus with 12 samples.

Results

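The protein components of the cytosolic ribosome were followed across fasting and across loss of the nuclear receptor PPARα in mouse small intestine. Members were all probe sets assigned to a single gene whose symbol starts with Rpl or Rps and a digit, or is Rplp0, Rplp1, Rplp2, Rpsa or Fau, leaving out the Rps6k kinases and pseudogenes. This gave 101 probe sets for 49 genes, of 22690 probe sets and 12394 genes on the Affymetrix Mouse Genome 430A array. A further 102 probe sets listed a ribosomal protein among several genes and were kept apart. Whole small intestine was profiled from 4 groups of 3 male mice aged 14 weeks on an AIN93M diet by the series' design text (standard chow by the methods): PPARα-null fasted for 24 h, PPARα-null fed, wild-type (WT) fasted for 24 h and WT fed. PPARα-null mice were 129S4/SvJae and WT mice 129S1/SvImJ by the study's methods (the labels of the fed mice give 129Sv for both), so the genotypes also differ in substrain, which cannot be told apart from the loss of PPARα.

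Ribosomal proteins assemble with ribosomal RNA into a small subunit, which decodes the mRNA, and a large subunit, which joins amino acids. The components are needed in matched amounts. Many of their mRNAs begin with a run of pyrimidines at the cap, the TOP motif, through which mTORC1, a kinase complex sensing nutrients, controls their translation more than their mRNA amount. PPARα is activated by fatty acids and switches on genes of fat oxidation during fasting.

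The first bases of the transcripts are shown because this run is the feature shared by many members which the selection did not use. Of the 49 genes, 43 had a start in the RefSeq promoter table (GRCm38.p6). A C followed by 4 or more C or T was searched on the sense strand from each position within 5 bases of an annotated start. It was found in 21 of these 43 genes (48.8%), compared with 21.2% of the 27025 genes in the table. A run found this way can begin further upstream. The windows below run from 10 bases before the start through the first 20 transcribed bases, with the matched stretch in capitals. Pyrimidines before that stretch, as in Rpl35, are not marked. Rplp2 lies at chr7:141447641-141447670 (+), Rps18 at chr17:33955646-33955675 (-), Rpl35 at chr2:39005112-39005141 (-), Fau at chr19:6057937-6057966 (+) and Rpl13a at chr7:45128726-45128755 (-). Rplp0 at chr5:115559457-115559486 (+) and Rpl7l1 at chr17:46782637-46782666 (-) are printed beside them as members with no such run at the annotated start.
Rplp2: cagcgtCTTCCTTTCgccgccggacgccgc
Rps18: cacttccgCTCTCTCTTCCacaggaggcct
Rpl35: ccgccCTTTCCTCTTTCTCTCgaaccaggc
Fau: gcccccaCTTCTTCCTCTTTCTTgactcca
Rpl13a: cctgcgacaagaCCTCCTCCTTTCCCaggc
Rplp0: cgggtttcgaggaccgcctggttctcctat
Rpl7l1: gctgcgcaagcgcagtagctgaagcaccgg
A second motif, CCGGAAG, the core bound by ETS family factors, was searched on both strands of the 300 bases from 250 before to 50 after the start. It occurred in 21 of the 43 genes (48.8%), compared with 9.9% of all genes in the table. Both matches describe sequence only.

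The deposited values of the fasted arrays were lower than those of the fed arrays over most of the chip, and the common shift was -0.32 on the log2 scale. The methods and labels do not state whether fed and fasted arrays were normalised together. The deposited fed values carry 2 decimals and the fasted values more. From the deposited values alone, an effect of fasting on all genes and a difference in processing thus cannot be told apart. The study's own listing of solute carrier signals in fed and fasted WT mice shows no such common shift. The cause of the shift was not tested. Fasting changes are therefore named as deposited or as relative to this shift. Arrays correlated at 0.970 to 0.997, and Ppara stood at 10.96 to 13.2 in PPARα-null fasted, 6.84 to 7.50 in PPARα-null fed, 30.8 to 58.7 in WT fasted and 19.9 to 35.9 in WT fed intestine. A description of the WT fasted samples names knockout mice, while their titles and strain give wild type, and their Ppara values lay above those of every PPARα-null array. Because whole tissue was used, fewer cells of a type and less RNA per cell cannot be told apart. Relative to the shift, 6 of 11 proliferating crypt cell markers over an intensity of 20 fell with fasting in PPARα-null and 1 in WT. Of all genes, 25.2% and 7.74% fell. The markers' summed intensity was 1581 to 1772 in PPARα-null fasted and 2869 to 3212 in PPARα-null fed mice. In WT it was 1735 to 2260 in fasted and 2769 to 3066 in fed mice. This sum and the marker sums that follow were taken on deposited values, which still hold the shift. Of 9 lymphocyte and plasma cell markers, 5 fell in PPARα-null and 3 in WT mice against the same background, and their sum was 4291 to 5508 in PPARα-null fasted, 8574 to 9233 in PPARα-null fed, 6281 to 7067 in WT fasted and 9913 to 10166 in WT fed mice. Of 8 smooth muscle markers, 1 fell in PPARα-null and 5 in WT mice against that background, and their sum was 3675 to 3943, 5249 to 5795, 2569 to 4053 and 5706 to 6591 in the same groups. Transcripts of 11 pancreatic genes, picked from 19 listed pancreas markers, summed to 9374 to 24782 on 5 of the 6 fasted arrays. The sum was 170 on PPARα-null fasted replicate 2 and 127 to 1412 on the fed arrays. All 15 listed markers over 20 in any group summed to 14485 to 43792 in PPARα-null fasted and 24571 to 37126 in WT fasted mice. In fed mice that wider sum was 16352 to 17632 in PPARα-null and 16306 to 18235 in WT. The part of the crypt, lymphocyte and muscle markers in the results below was not tested. For the pancreatic transcripts some values are also given without the 2 PPARα-null fasted arrays that carry them. The WT fasted arrays, which all carry them too, were kept. Between fasted groups, genotype and pancreatic signal therefore cannot be told apart in those fits.

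The intensities of the ribosomal protein mRNAs changed little between arrays in the deposited values. Of the 49 genes, 42 exceeded an intensity of 20 in WT fed intestine and were tested. The 7 not tested were Rpl12, Rpl14, Rpl39l, Rpl3l, Rps25, Rps27 and Rps6, with means of 4.31 to 13.4 there. How well their single-gene probe sets read these mRNAs was not tested. A mean above 1000, a level chosen after the values were seen, was found for 37 genes. The median over these 37 genes was 3780, 3869 and 3940 on the PPARα-null fasted arrays and 4157, 3891 and 3819 on the PPARα-null fed arrays. In WT mice it was 4000, 3877 and 3989 on the fasted arrays and 3885, 4188 and 4057 on the fed arrays. The lowest and the highest of the 12 medians were thus close, and fasted and fed arrays overlapped in both genotypes. Relative to each gene's own mean, the members' median lay between -0.09 and -0.03 on the PPARα-null fasted arrays and between 0.01 and 0.07 on the PPARα-null fed arrays, and between -0.04 and 0.01 on the WT fasted arrays and between 0.02 and 0.05 on the WT fed arrays. On this measure the fasted arrays lay below the fed arrays in both genotypes. All expressed genes moved further, with medians of -0.19 to -0.13 on fasted and 0.11 to 0.19 on fed arrays.

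**Figure D1:**
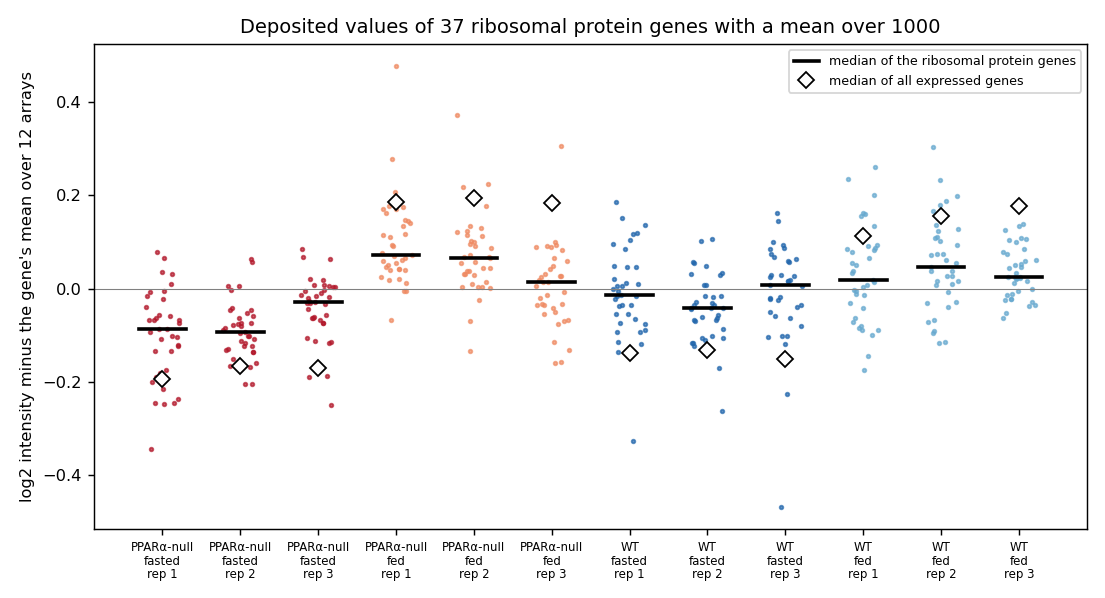
Deposited log2 intensity of each of the 37 ribosomal protein genes with a mean over 1000, minus its own mean over 12 arrays, for the 3 arrays of each group. Points are genes, black lines their median and white diamonds the median of all expressed genes, which lies at -0.19 to -0.13 on fasted arrays while the ribosomal protein medians stay between -0.09 and 0.01.

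Replicates of these genes were close. The median within-group SD was 0.067 on the log2 scale for the 37 bright members, 0.090 for 535 other genes with a mean over 1000 and 0.15 for all 5816 expressed genes. As deposited, 97.3% of the bright members changed less than 1.3-fold upon fasting in PPARα-null and 97.3% in WT mice. This compares with 56.4% and 68.0% of the other bright genes, and with 42.0% and 58.8% of all expressed genes, in PPARα-null and WT mice. The share of bright members relative to the shift was 97.3% in PPARα-null and 86.5% in WT mice, against 69.9% and 87.7% of the other bright genes, so in WT mice their closeness to 0 depends on the scaling. As deposited the only bright member past that fold was Rps27l, described below with the other paralogues. Without the paralogues Rps27l and Rpl22l1, the deposited changes of the 35 remaining genes ranged from -0.32 to 0.06 in PPARα-null (median -0.12) and from -0.26 to 0.14 in WT mice (median -0.03). In the brightest class, with a mean over 3000, the 25 members had deposited medians of -0.10 in PPARα-null and -0.03 in WT mice, while the 113 other genes had medians of -0.26 and -0.24.

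**Figure D2:**
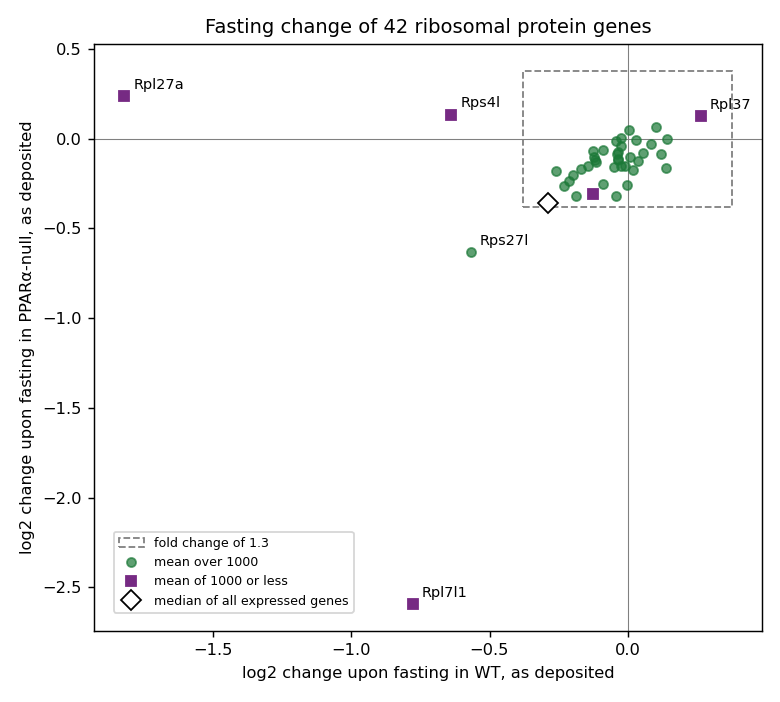
Log2 change upon fasting as deposited in WT (horizontal) and PPARα-null mice (vertical) for the 42 tested ribosomal protein genes, in green where the mean was over 1000. The dashed box marks a fold change of 1.3 and the white diamond the median of all expressed genes, at -0.36 in PPARα-null and -0.29 in WT mice. The bright genes crowd near 0 inside the box, with Rps27l, Rps4l, Rpl27a and Rpl7l1 outside it.

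Relative to the common shift, the same genes read as higher upon fasting. The median change of the 42 genes was 0.20 in PPARα-null and 0.28 in WT mice, against -0.05 and 0.03 for all expressed genes, whereas as deposited it was -0.12 and -0.04. A gene was called when the unadjusted p was under 0.01 and the fold over 1.3. In PPARα-null mice 2 members rose and 1 fell, where 17.8% of all expressed genes rose and 25.2% fell. In WT mice 6 members rose and 1 fell, where 9.9% of all expressed genes rose and 7.74% fell. As deposited, no member rose in either genotype (background 7.75% in PPARα-null and 2.51% in WT), and 2 fell in PPARα-null and 3 in WT mice (background 45.8% and 32.5%). Every member gene called as risen relative to the shift was thus not called in the deposited values. Without regard to a threshold, all 3 fasted arrays lay below all 3 fed arrays as deposited for 22 of 42 members in PPARα-null and 13 of 42 in WT mice, where 59.5% and 53.1% of all genes did so. All 3 lay above for 0 and 3 members, where 12.2% and 4.54% of all genes did so.

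**Figure D3:**
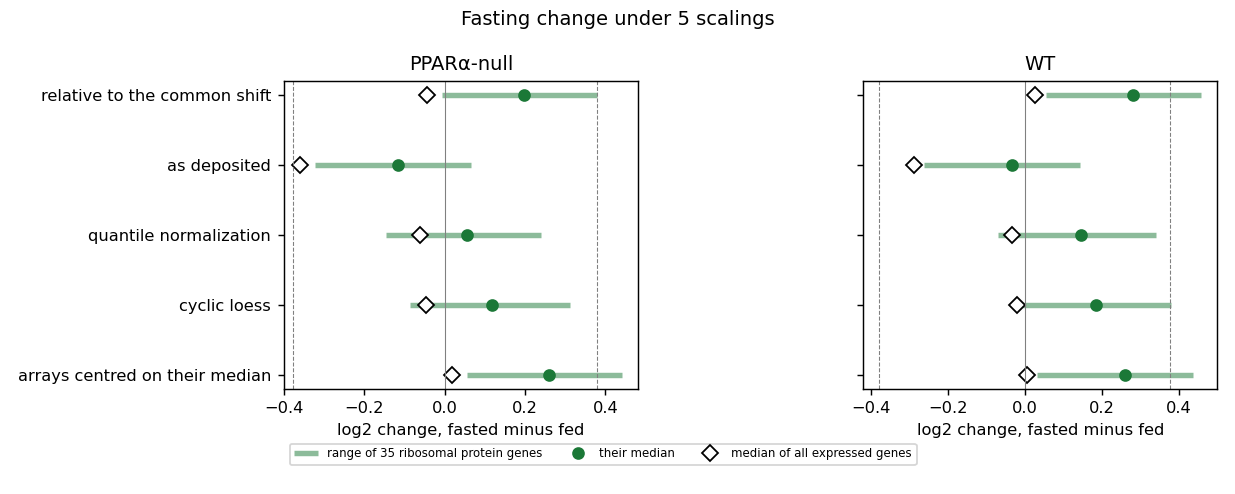
Fasting change of the 35 bright ribosomal protein genes without Rps27l and Rpl22l1 under 5 scalings, in PPARα-null (left) and WT mice (right). Bars give the range over genes, circles their median and diamonds the median of all expressed genes. The members' median lies above that of all genes under each scaling, by least under quantile normalisation, where it is 0.05 against -0.06 in PPARα-null and 0.15 against -0.03 in WT mice.

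The 2 tested stalk proteins, which recruit elongation factors to the large subunit, did not move alike. Rpl12, listed with them, was under the level tested. Rplp0, the stalk base, had 5993, 6160 and 5908 in PPARα-null fasted against 6448, 6531 and 6218 in PPARα-null fed intestine. In WT mice it had 6801, 6510 and 7115 in fasted against 6594, 5875 and 6315 in fed intestine. The arrays separated, with fasted below fed, in PPARα-null mice and overlapped in WT mice. Relative to the shift the change was 0.23 ± 0.08 (SE) in PPARα-null (limma, adjusted p = 0.022, under the fold threshold) and 0.44 ± 0.08 in WT mice (adjusted p = 0.0018, called). As deposited these were -0.09 and 0.12, and neither was called. The difference between the genotypes, -0.21, had an adjusted p of 0.18. Rplp2, which binds to that base, had 4996, 5236 and 5313 in PPARα-null fasted against 6194, 6300 and 6153 in PPARα-null fed intestine. In WT mice it had 5383, 5353 and 5348 in fasted against 6126, 6442 and 6296 in fed intestine. All fasted arrays lay below all fed arrays in both genotypes, by -0.26 and -0.23 as deposited, which left 0.05 and 0.09 relative to the shift, neither called.

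Among other large subunit proteins, Rpl37 was called in both genotypes relative to the shift. Its intensity was 262, 299 and 304 in PPARα-null fasted against 287, 266 and 239 in PPARα-null fed intestine, and 347, 322 and 319 in WT fasted against 269, 282 and 270 in WT fed intestine. Fasted arrays lay above fed arrays in WT mice and overlapped in PPARα-null mice. The change was 0.44 ± 0.09 in PPARα-null (adjusted p = 0.0012) and 0.58 ± 0.09 in WT mice (adjusted p = 0.0011), and 0.13 and 0.27 as deposited, not called. Without PPARα-null fed replicate 3 the change in PPARα-null mice was 0.37 and was not called. Rpl41, the smallest ribosomal peptide, had 3661, 3623 and 3482 in PPARα-null fasted against 3312, 3307 and 3689 in PPARα-null fed intestine, and 3811, 3486 and 3375 in WT fasted against 3074, 3560 and 3320 in WT fed intestine. These arrays overlapped in both genotypes, with deposited changes of 0.06 in PPARα-null and 0.10 in WT mice that were not called. The calls relative to the shift, at 0.38 in PPARα-null (adjusted p = 0.0024) and 0.42 in WT mice (adjusted p = 0.0050), lie just past the fold threshold, which is 0.38 on the log2 scale. The call in PPARα-null mice was kept in 6 of 12 fits that left out 1 array each, and the call in WT mice was lost without WT fed replicate 1 or without WT fasted replicate 1 (0.37 each). Rpl11, which with Rpl5 and the 5S RNA forms a particle that also restrains the p53 regulator Mdm2, had 1851, 1755 and 1856 in PPARα-null fasted against 1947, 1861 and 1816 in PPARα-null fed intestine. In WT mice it had 1866, 1840 and 1869 in fasted against 1879, 1910 and 1876 in fed intestine. Its change was -0.04 in PPARα-null and -0.02 in WT mice as deposited, and 0.27 and 0.29 relative to the shift, none called.

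Of 5 tested proteins lining the peptide exit tunnel, none was called upon fasting in either genotype. Relative to the shift, 17.8% of all genes rose and 25.2% fell in PPARα-null and 9.9% rose and 7.74% fell in WT mice. So short a list says little beside these shares. The values of Rpl4 were 0.36 in PPARα-null and 0.32 in WT mice relative to the shift, and 0.05 and 0.0043 as deposited. Those of Rpl35 were -0.01 and 0.27 relative to the shift, and -0.32 and -0.04 as deposited. Rpl35 had 3780, 4247 and 3940 in PPARα-null fasted against 5176, 5219 and 4575 in PPARα-null fed intestine, all below, and 4371, 4223 and 4788 in WT fasted against 4777, 4365 and 4627 in WT fed intestine, which overlapped. The difference between the genotypes, -0.28, had an adjusted p of 0.12. In the small subunit, Rps19, a gene mutated in human Diamond-Blackfan anaemia, had 2696, 2675 and 2862 in PPARα-null fasted against 2815, 2901 and 2533 in PPARα-null fed intestine, with overlap, and 3137, 3038 and 2995 in WT fasted against 2665, 2857 and 2781 in WT fed intestine, with no overlap. Relative to the shift its change of 0.31 in PPARα-null mice was under the fold threshold, and it rose by 0.46 ± 0.08 in WT mice (adjusted p = 0.0017). As deposited these were -0.0011 and 0.14, not called. Rps20 was the other small subunit member called in WT mice, at 0.40 relative to the shift (adjusted p = 0.0063) and 0.08 as deposited, not called. Its arrays overlapped, at 5290, 4751 and 4982 in WT fasted and 5202, 4365 and 4631 in WT fed intestine, and the call was lost without WT fed replicate 2 (0.34) or without WT fasted replicate 1 (0.36). Subunits did not separate. Relative to the shift, the 18 bright small subunit genes without Rps27l had a median change of 0.21 in PPARα-null and 0.29 in WT mice. The 17 bright large subunit genes without Rpl22l1 had 0.20 and 0.27. As deposited the medians were -0.11 and -0.03 for the small and -0.12 and -0.04 for the large subunit.

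Few members were called between genotypes. In fed mice no member was called in either direction, where 1.06% of all expressed genes were higher and 1.42% lower in PPARα-null mice, and the median difference over 42 genes was 0.01. The 3 PPARα-null fed arrays lay above the 3 WT fed arrays for 2 members and below them for 1, where 11.9% and 5.5% of all genes did so. In fasted mice 1 member was higher and 1 lower in PPARα-null mice, where 13.9% of all genes were higher and 17.7% lower, and the median difference was -0.03. The 3 PPARα-null fasted arrays lay above the 3 WT fasted arrays for 2 members and below them for 12, where 24.8% and 27.1% of all genes did so. The fasting responses differed, at an adjusted p under 0.05, for the same 2 genes, Rps4l with a positive and Rpl7l1 with a negative difference, where 8.37% of all genes had a positive and 15.7% a negative difference. For Rplp0 the genotype difference in fed mice was 0.03 ± 0.08 and for Rps18, a small subunit protein, 0.01 ± 0.07. Both are small beside the fold threshold of 0.38.

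Rpl7l1 behaved unlike the ribosomal subunits. It encodes a relative of Rpl7 that is not counted as a component of the mature ribosome. Its intensity was 25.7, 25.6 and 31.0 in PPARα-null fasted against 142, 172 and 184 in PPARα-null fed intestine. In WT mice it was 95.2, 96.7 and 92.7 in fasted against 151, 167 and 171 in fed intestine. Fed arrays of both genotypes overlapped, WT fasted arrays lay below them and PPARα-null fasted arrays lay lower again. Relative to the shift it fell by 2.28 ± 0.11 in PPARα-null (adjusted p = 1.53e-08) and by 0.46 ± 0.11 in WT mice (adjusted p = 0.010), and as deposited by 2.59 and 0.78. The responses differed by -1.81 (adjusted p = 1.21e-05). Its dimmer probe set gave 18.4, 20.4 and 23.4 in PPARα-null fasted against 50.6, 46.3 and 41.3 in PPARα-null fed intestine, and 41.3, 40.9 and 33.3 in WT fasted against 41.0, 34.6 and 45.4 in WT fed intestine. On that probe set the groups separated in PPARα-null mice only, and the responses differed by -1.09 (adjusted p = 0.0013). With the 2 PPARα-null fasted arrays carrying pancreatic transcripts left out, which leaves 1 array in that group, the difference on the brighter probe set was -1.91. The WT fasted arrays in that fit still carry these transcripts.

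**Figure D4:**
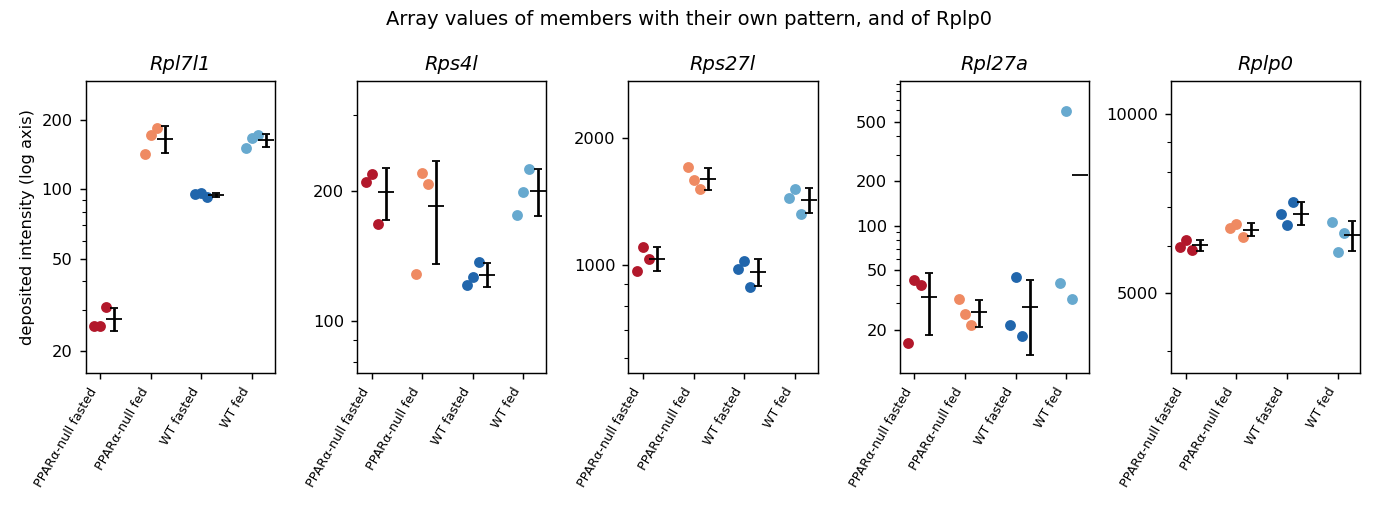
Deposited intensity (log axis, a scale of its own for each gene) of Rpl7l1, Rps4l, Rps27l and Rpl27a, with Rplp0 as a core member, on the 3 arrays of each group. Dots are arrays and bars the mean ± SD, with no SD for Rpl27a in WT fed. Rpl7l1 lies at 25.6 to 31.0 in PPARα-null fasted and at 92.7 to 96.7 in WT fasted intestine, and the high WT fed mean of Rpl27a comes from 1 array.

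Of 3 tested paralogues of core members, none was called upon fasting relative to the shift. Of all genes, 17.8% rose and 25.2% fell in PPARα-null and 9.9% rose and 7.74% fell in WT mice. Rps27l, a relative of Rps27 known as a p53 target, had 966, 1104 and 1032 in PPARα-null fasted against 1705, 1585 and 1515 in PPARα-null fed intestine, and 978, 1022 and 886 in WT fasted against 1443, 1511 and 1321 in WT fed intestine. All fasted arrays lay below all fed arrays in both genotypes. As deposited the change was -0.63 in PPARα-null and -0.57 in WT mice, both called, and its 3 probe sets ran from -0.72 to -0.54 in PPARα-null and from -0.57 to -0.54 in WT mice. Relative to the shift it was -0.32 and -0.25 and was not called. Rpl22l1, the paralogue of Rpl22, had -0.20 in both genotypes as deposited, within the range of the core genes, and 0.11 in PPARα-null and 0.12 in WT mice relative to the shift, none called. Rps4l, related to Rps4x, had 209, 218 and 167 in PPARα-null fasted against 121, 126 and 136 in WT fasted intestine, with no overlap, and 128, 219 and 207 in PPARα-null fed against 175, 199 and 224 in WT fed intestine, with overlap. It was higher in PPARα-null fasted mice by 0.63 ± 0.18 (adjusted p = 0.014), a call lost without replicate 1 or 2 of either fasted group (0.55 to 0.62), and the responses differed by 0.77 (adjusted p = 0.043). The call of that difference was kept in 4 of 12 fits that left out 1 array each, with values over the 12 fits of 0.53 (without PPARα-null fed replicate 1) to 0.91, and with both PPARα-null fasted arrays carrying pancreatic transcripts left out it was 0.92 on 1 remaining array and not called (adjusted p = 0.078).

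The value of Rpl27a rested on a single array. Its probe set gave 16.3, 43.3 and 40.2 in PPARα-null fasted against 32.1, 25.3 and 21.4 in PPARα-null fed intestine, and 21.4, 45.3 and 18.1 in WT fasted against 41.2, 585 and 32.2 in WT fed intestine. WT fed replicate 2 stood alone at 585. The change upon fasting in WT mice was -1.51 relative to the shift with that array and -0.17 without it, and it was not called either way.

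Of the 101 probe sets, 79 exceeded 20 in WT fed intestine, and for 19 genes 2 or more did. In 14 of these genes the deposited fasting changes of the probe sets lay within a 1.3-fold range in both genotypes. The exceptions were Rpl13a, Rpl22, Rpl27, Rpl7l1 and Rps24. For Rpl13a, a large subunit protein that in human cells also takes part in translational silencing, the brightest probe set had 4718, 5208 and 5569 in PPARα-null fasted against 6102, 5959 and 5293 in PPARα-null fed intestine, and 6030, 5966 and 5821 in WT fasted against 5189, 5585 and 5423 in WT fed intestine. Relative to the shift it had 0.15 in PPARα-null mice, not called, and rose by 0.45 in WT mice (adjusted p = 0.0032). As deposited it had -0.16 and 0.14, not called. The dimmest had 160, 189 and 190 in PPARα-null fasted against 373, 375 and 333 in PPARα-null fed intestine, and 284, 215 and 258 in WT fasted against 416, 297 and 347 in WT fed intestine, and relative to the shift it fell by 0.69 in PPARα-null mice (adjusted p = 8.33e-04) and had -0.17 in WT mice, not called. As deposited it fell by 1.01 in PPARα-null and by 0.48 in WT mice. Which transcripts each probe set reads was not tested.

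For Rps24, a small subunit protein, the brightest probe set had a deposited change of -0.12 in PPARα-null and -0.03 in WT mice. Its dimmest, near the threshold, gave 8.58, 10.3 and 10.05 in PPARα-null fasted against 22.5, 24.3 and 26.1 in PPARα-null fed intestine, and 21.6, 18.1 and 16.7 in WT fasted against 27.5, 20.7 and 26.8 in WT fed intestine. PPARα-null fasted arrays stood apart there, and the responses differed by -0.93 (adjusted p = 0.0035). A dim probe set of Rpl22 had 21.4, 19.4 and 24.1 in PPARα-null fasted against 27.1, 21.6 and 21.3 in PPARα-null fed intestine, and 31.6, 28.5 and 33.4 in WT fasted against 21.6, 19.3 and 23.5 in WT fed intestine. It was high in WT fasted intestine alone and was called as deposited, at 0.54, while the bright probe set of Rpl22 had -0.19. Over all 79 probe sets, 4 rose and 5 fell in PPARα-null and 10 rose and 1 fell in WT mice, where 18.6% and 23.6% of all probe sets in PPARα-null and 10% and 7.43% in WT mice did so. As deposited, 0 rose and 11 fell in PPARα-null and 1 rose and 9 fell in WT mice, where 8.16% and 43.4% of all probe sets in PPARα-null and 2.49% and 31.7% in WT mice did so. Between genotypes, no member probe set was called in fed mice (1% of all higher and 1.65% lower), and in fasted mice 1 of 78 was higher and 5 lower in PPARα-null mice (14% and 16.8% of all). The responses differed with a positive sign for 1 and a negative sign for 5 of 79 probe sets (9.03% and 14.3% of all). The 85 tested probe sets listing several genes had a median of 0.22 in PPARα-null and 0.23 in WT mice relative to the shift, and -0.10 and -0.08 as deposited.

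**Figure D5:**
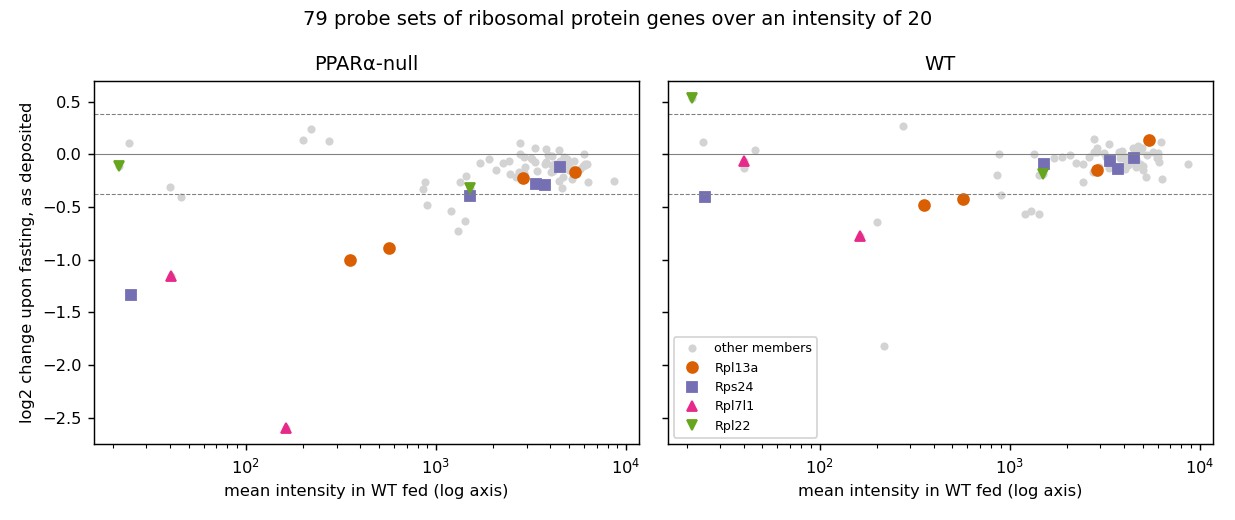
Log2 change upon fasting as deposited against the mean intensity in WT fed (log axis) for 79 ribosomal protein probe sets, in PPARα-null (left) and WT mice (right). Dashed lines mark a fold change of 1.3. Probe sets with a mean over 3000 lie between the lines, and the dimmest ones of Rpl13a and Rps24 lie below them in both genotypes. Of Rpl7l1, the brighter of 2 probe sets lies lower.

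Of 15 other genes with TOP mRNAs, 1 rose in PPARα-null and 1 in WT mice and none fell relative to the shift, where 17.8% and 9.9% of all genes rose and 25.2% and 7.74% fell. The medians were 0.23 in PPARα-null and 0.22 in WT mice. As deposited none rose, 1 fell in PPARα-null mice (Eef1d, an elongation factor subunit, at -0.53) and none fell in WT mice, with medians of -0.08 and -0.09. The elongation factor Eef1a1 had 8548, 8280 and 8470 in PPARα-null fasted against 8878, 8752 and 8555 in PPARα-null fed intestine, and 8186, 8150 and 8563 in WT fasted against 8311, 9378 and 8846 in WT fed intestine. Eef2, the translocation factor, had changes of -0.04 in PPARα-null and -0.05 in WT mice as deposited and of 0.28 and 0.26 relative to the shift, none called. Of 73 tested genes for proteins of the mitochondrial ribosome, a separate particle, 4 rose and 26 fell in PPARα-null and none rose and 11 fell in WT mice relative to the shift, where 17.8% of all genes rose and 25.2% fell in PPARα-null and 9.9% rose and 7.74% fell in WT mice. The medians were -0.17 and -0.09, and -0.49 and -0.41 as deposited.

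The lists that follow are counted relative to the shift, where 17.8% of all genes rose and 25.2% fell in PPARα-null and 9.9% rose and 7.74% fell in WT mice. Of 26 initiation factors, 4 rose and 1 fell in PPARα-null and 3 rose and 1 fell in WT mice. Eif4a2, a helicase of the cap-binding complex, had 968, 960 and 1069 in PPARα-null fasted against 1530, 1472 and 1382 in PPARα-null fed intestine, and 1582, 1400 and 1512 in WT fasted against 1412, 1334 and 1370 in WT fed intestine. PPARα-null fasted arrays lay below the rest, and the responses differed by -0.68 (adjusted p = 0.0014). Of 15 genes of the mTORC1 axis, 6 rose and 2 fell in PPARα-null and 3 rose and none fell in WT mice. Ddit4, an inhibitor of mTORC1, had 259, 154 and 220 in PPARα-null fasted against 52.9, 68.7 and 49.5 in PPARα-null fed intestine, and 47.6, 62.6 and 28.1 in WT fasted against 48.4, 56.4 and 54.9 in WT fed intestine. It was high in PPARα-null fasted intestine alone, by 2.19 ± 0.25 upon fasting (adjusted p = 1.5e-05), and the responses differed by 2.15 (adjusted p = 0.0012). Myc, a transcription factor that drives ribosome production, had 10.3, 10.8 and 8.96 in PPARα-null fasted against 20.7, 29.4 and 20.7 in PPARα-null fed intestine, and 26.7, 27.8 and 33.7 in WT fasted against 18.6, 24.1 and 31.0 in WT fed intestine. It was low in PPARα-null fasted intestine alone, and the responses differed by -1.50 (adjusted p = 0.0014). Among 17 genes of ribosome assembly, 2 rose and 1 fell in PPARα-null and none rose and 1 fell in WT mice. The gene that fell in both was Nop2, a nucleolar RNA methyltransferase, at -0.83 in PPARα-null and -0.40 in WT mice.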

How the data were processed

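RNA from the full length of the small intestine was hybridised to 12 Affymetrix arrays, 3 mice in each of 4 groups. The authors estimated one linear intensity per probe set from the scans with GCRMA (version 2.20 in the submitters' processing notes), and these deposited intensities were used after log2 transformation. Their number, 3 per group, limits the precision. Genes were named through the platform annotation (20393 probe sets with 1 symbol, 691 with several, 1606 with none), and all 101 member probe sets matched RefSeq by gene ID.

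All probe sets were fitted with limma 3.58.1 in R 4.3.3 (1 mean per group, empirical Bayes). Fasting changes were taken after 1 constant, the median fasting change of -0.32, was removed from all fasted arrays, and also as deposited. Probe sets over 20 in WT fed were tested for fasting, over 20 in either group for genotype, and over 20 in any group for the difference of responses (PPARα-null minus WT, adjusted p under 0.05). Other calls needed p under 0.01 and a fold over 1.3. P-values were adjusted by Benjamini-Hochberg over all kept probe sets. Each gene was represented by its probe set with the highest mean. The fits were tested on simulated data.

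Genes were named by a rule: the largest and smallest fasting changes, members called between genotypes or in the difference of responses, members with particular roles, and up to 3 called per direction in other lists. Eef1a1, Eef2 and single probe sets of Rps24 and Rpl22 were added after their values were seen. The members and lists were chosen with earlier results of these data known. Alternatives covered the scaling, the level filter, the threshold, the arrays and variance model in the fit, the probe sets, the replicate number and each array left out.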

Additional observations from a re-analysis of the deposited data

Results flagged for a closer look

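The fasting response of 2 members differed between PPARα-null and WT mice by the test of the difference itself. By the same test, 8.37% of all genes had a positive and 15.7% a negative difference. Rpl7l1 had a difference of -1.81 (limma, adjusted p = 1.21e-05), lower on 3 of 3 PPARα-null fasted arrays than on any other array. Rps4l had a difference of 0.77 (adjusted p = 0.043), with 3 of 3 PPARα-null fasted arrays above every WT fasted array. Its call was kept in 4 of 12 fits that left out 1 array each.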

How the results depend on the processing

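Removal of the shift between fasted and fed arrays, the replicate number and the choice of probe set were varied. Relative to the shift, 9.9% of all genes rose and 7.74% fell in WT mice. As deposited 2.51% rose and 32.5% fell, under quantile normalisation 7.77% and 10.3%, and under cyclic loess 8.17% and 9.54%. Of the members, 6 rose and 1 fell relative to the shift. The rises numbered 0 as deposited, 1 under quantile normalisation, and 2 under cyclic loess and also without probe sets ending in _s_at or _x_at. The falls numbered 3 as deposited and 0 with the mean of all probe sets. The WT median was 0.28, against -0.039 as deposited, 0.13 under quantile normalisation and 0.18 under cyclic loess. In PPARα-null mice 17.8% of all genes rose and 25.2% fell relative to the shift, and 7.75% and 45.8% as deposited. Under quantile normalisation 17.8% rose and 25.6% fell, under cyclic loess 18.1% and 25.2%, and with arrays centred 20.8% and 22.7%. Of the members, 2 rose and 1 fell relative to the shift. The rises numbered 0 as deposited, 4 with arrays centred, and 1 under quantile normalisation, cyclic loess, without those probe sets, and without the 2 arrays carrying pancreatic transcripts. The falls numbered 2 as deposited, under quantile normalisation and without those probe sets, and 3 when any probe set could count. The PPARα-null median was 0.20, against -0.12 as deposited, 0.053 under quantile normalisation, 0.12 under cyclic loess, 0.26 centred and 0.15 without the 2 arrays. Between genotypes, centring gave medians of -0.032 fed and 0.012 fasted, and 0.028 for the difference of responses. Without the 2 arrays the fasted median was -0.063, and the single rise in fasted mice and in the difference of responses, Rps4l in both, was no longer called at 0.77 (adjusted p = 0.050) and 0.92 (adjusted p = 0.078) with 1 array left in the group, giving counts of 0. The positive difference of responses also became 0 with no level filter. The single fall in fasted mice became 0 with a level over 100 and 4 when any probe set could count. The single negative difference became 2 without those probe sets or with their mean, and 4 when any could count. The alternatives without the 2 arrays and with any probe set were chosen after seeing the data.

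Leaving out each array in turn gave 4 to 7 rises in WT, 1 to 2 in PPARα-null, 0 to 1 falls between genotypes in fed mice, 0 to 1 rises in fasted mice and 0 to 1 positive differences of response. Medians ran from 0.25 to 0.29 in WT, 0.18 to 0.21 in PPARα-null, -0.01 to 0.03 between genotypes fed, -0.05 to -0.02 fasted and -0.094 to -0.045 for the difference. Over 110 named values and 25 settings, 2572 of 2639 kept their side of the threshold, 52 lost the call, 15 gained it and none reversed a call. Most of the named values were not called in the main fit and had no call to lose, so these totals do not measure how stable the calls were. Upon fasting in PPARα-null mice, Rpl41 was called in 13 of 24 settings and Rpl7l1 in 25 of 25. The difference of responses of Rps4l was called in 13 of 23 settings. Values that were not called could change sign with the scaling. Rpl11 in WT mice, for example, had 0.29 relative to the shift and -0.02 as deposited.

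Of 18 same-numbered pairs of arrays, 5 correlated over 0.1, with values between -0.15 and 0.21. Differently numbered pairs were not compared, so whether the replicate numbers pair the arrays cannot be decided. With the replicate number as a block, 6 members rose and 1 fell in WT and 2 rose and 1 fell in PPARα-null mice, with medians of 0.28 and 0.20. In fed mice 0 were called with a median of 0.01, and in fasted mice 1 rose and 1 fell with a median of -0.03. The difference of responses had 1 of each sign and a median of -0.06.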
